A study of Mus musculus with 4 samples.

Results

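Secretory luminal cells of the mouse ventral prostate were picked from single-cell count tables by their own messages. A cell was taken when it had at least 1000 unique molecular identifiers (UMIs, the tags that mark single captured transcripts), at most 20% of them from mt- genes, at least 10% from Sbp and Spink1 together, less than 1% from Msmb and less than 0.2% from Smr2 and Smr2l together. The rule found 2467 cells among the 11245 of the 4 tables. Sham replicate 1 gave 651 of its 2250 cells and sham replicate 2 gave 1011 of 3061. The libraries of the group coded te2 gave 361 of 3078 and 444 of 2856. Because Sbp, Spink1, Msmb, Smr2, Smr2l and the mt- genes chose the cells, their values are given as a description and were not tested.

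All 4 animals were C57BL6j mice labelled wt, and 2 belonged to each group. The design text speaks of hormone pellets and of prostates taken 2 weeks after implantation. The labels call one group sham and the other te2, without the hormone, the dose or what the sham animals received. What the code stands for is not given in the sources used here, nor is the age of the animals. Both ventral lobes of an animal made 1 library, which was built with a droplet kit that reads the 3' end of transcripts, so a level here is a share of molecules and needs no scaling by gene length.

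Luminal cells line the ducts of the prostate and pour proteins, polyamines, citrate and zinc into the seminal fluid. In the ventral lobe of rodents their main products are the spermine-binding protein, encoded by Sbp, and the Kazal-type protease inhibitor encoded by Spink1, and many genes of the gland depend on androgen. Such output rests on a large endoplasmic reticulum (ER), on sorting and exocytosis of vesicles, and on a metabolism that, in the normal human gland, exports citrate instead of burning it.

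The label was checked on genes that the rule did not use. Azgp1, which encodes a secreted zinc-binding glycoprotein, stood at 1132 and 1050 CPM (counts scaled to a fixed library total, here without further factors) in the sham members and 665 and 548 CPM in the te2 members. The other cells that met the depth and mt- limits held 259, 764, 355 and 366 CPM in the same order, so the members were higher in all 4 libraries. Hoxb13, a homeobox factor of the posterior prostate, stood at 609, 672, 1002 and 995 CPM in the members and at 228, 492, 920 and 871 CPM in the other cells. The members were thus also higher in Hoxb13 in all 4 libraries, by a small margin in te2. The luminal keratin genes Krt8 and Krt18 were found in all libraries, each with at least 528 CPM. Pbsn, which encodes probasin, an androgen-dependent protein of the prostate, was too low to test.

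Promoter stretches are printed for 3 secreted-product genes on which the comparison below turns, 1 that was lower in te2 and 2 that were higher. Each holds the 250 bases before the RefSeq start on build GRCm38.p6, which is older than the GRCm39 build named in the submitters' processing notes. Capitals mark the letters TGTTCT on either strand, a half-site of the androgen and glucocorticoid receptors. The 9530002B09Rik stretch is chr4:122689009-122689258 on the plus strand, the Gpx3 stretch chr11:54902604-54902853 on the plus strand and the Wfdc3 stretch chr2:164743268-164743517 on the minus strand.
9530002B09Rik: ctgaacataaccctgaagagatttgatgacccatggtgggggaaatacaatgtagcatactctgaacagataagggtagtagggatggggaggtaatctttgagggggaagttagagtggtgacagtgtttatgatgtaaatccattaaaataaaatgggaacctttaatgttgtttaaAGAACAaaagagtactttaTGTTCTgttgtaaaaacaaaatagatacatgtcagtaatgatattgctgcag
Gpx3: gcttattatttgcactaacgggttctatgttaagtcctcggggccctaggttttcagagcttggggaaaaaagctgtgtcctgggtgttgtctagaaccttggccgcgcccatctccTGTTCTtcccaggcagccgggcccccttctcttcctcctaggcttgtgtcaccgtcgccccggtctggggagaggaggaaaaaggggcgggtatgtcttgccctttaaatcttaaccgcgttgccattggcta
Wfdc3: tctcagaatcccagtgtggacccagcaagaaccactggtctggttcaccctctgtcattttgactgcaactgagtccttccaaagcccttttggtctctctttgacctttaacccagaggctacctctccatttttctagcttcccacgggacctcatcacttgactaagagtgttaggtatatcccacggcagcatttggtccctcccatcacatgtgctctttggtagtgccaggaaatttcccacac
The 9530002B09Rik stretch held 2 matches, which begin 71 and 52 bases before the start, the Gpx3 stretch held 1, which begins 133 bases before the start, and the Wfdc3 stretch held 0. Of 32851 mouse promoters of the same length, 16.1% held at least 1 match and 1.81% held at least 2. A match is a run of letters, not a binding site.

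Among the cells that met the depth and mt- limits, the members made up 68.5% (exact 95% binomial interval 65.4 to 71.4) and 70.2% (67.8 to 72.6) in the sham libraries. In the te2 libraries they made up 17.5% (15.9 to 19.3) and 23.6% (21.7 to 25.6). These intervals cover counting error only, and the shares follow from the rule. The depth limit weighs on them too, since 1291 and 1609 sham barcodes lay under 1000 UMIs and held a median of 17.3% and 17.2% Sbp and Spink1. In te2, 991 and 932 barcodes lay under that limit, with medians of 1.29% and 2.47%. Just inside the 10% limit, from 10 to 11%, lay 4 and 9 sham and 16 and 11 te2 members. Just outside it, from 9 to 10%, lay 3 and 8 sham and 19 and 19 te2 cells. The Msmb limit removed 0, 1, 0 and 2 cells in the order of the libraries, so luminal cells high in Msmb were too few for the comparison that had been planned with them. The limit on Smr2 and Smr2l removed 9 and 14 te2 cells and no sham cell.

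The te2 members were deeper, with a median of 8751 and 10703 UMIs against 3474 and 2991 in sham, and with 2465 and 2729 genes per cell against 1176 and 1115. Deeper sequencing and more RNA per cell cannot be told apart in these tables. Summed over the members, the libraries held 2689504, 3634844, 3220985 and 4767019 UMIs, which set the precision of each level below. Of the 15 barcodes that pairs of libraries shared, none was a member's. Scrublet called 2, 2, 5 and 3 members doublets.

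Sbp and Spink1 alone made up 31.8% and 29.6% of the summed UMIs of the sham members and 25.4% and 29.1% of those of the te2 members. From here on CPM values carry the TMM scaling factor of the test. Sbp stood at 215066 and 200600 CPM in sham and at 150525 and 222060 CPM in te2, so the groups overlapped. In UMIs per cell it stood at 852 and 710 in sham and at 1394 and 2389 in te2, where cells were deeper. Spink1 stood at 117188 and 100391 CPM in sham and at 94001 and 68820 CPM in te2. On this scale both te2 libraries were below both sham libraries in Spink1. By plain totals te2 replicate 1 and sham replicate 2 were close, at 97597 and 98792 CPM. With every cell thinned to the same number of UMIs, the groups overlapped. The median share of Spink1 per cell was then 10.7% and 8.7% in sham and 10.1% and 5.7% in te2. In UMIs per cell Spink1 stood at 464 and 355 in sham and at 871 and 740 in te2.

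With ribosomal protein and mt- genes left out, the next genes by level were 9530002B09Rik, Grip2, Spink5 and Cdcp3. Cdcp3 stood between 4119 and 5914 CPM in all libraries, with the te2 values inside the sham range. The 20 genes of highest level, by the same count, took 39.0% and 36.1% of sham UMIs and 32.4% and 35.3% of te2 UMIs.

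**Figure D1:**
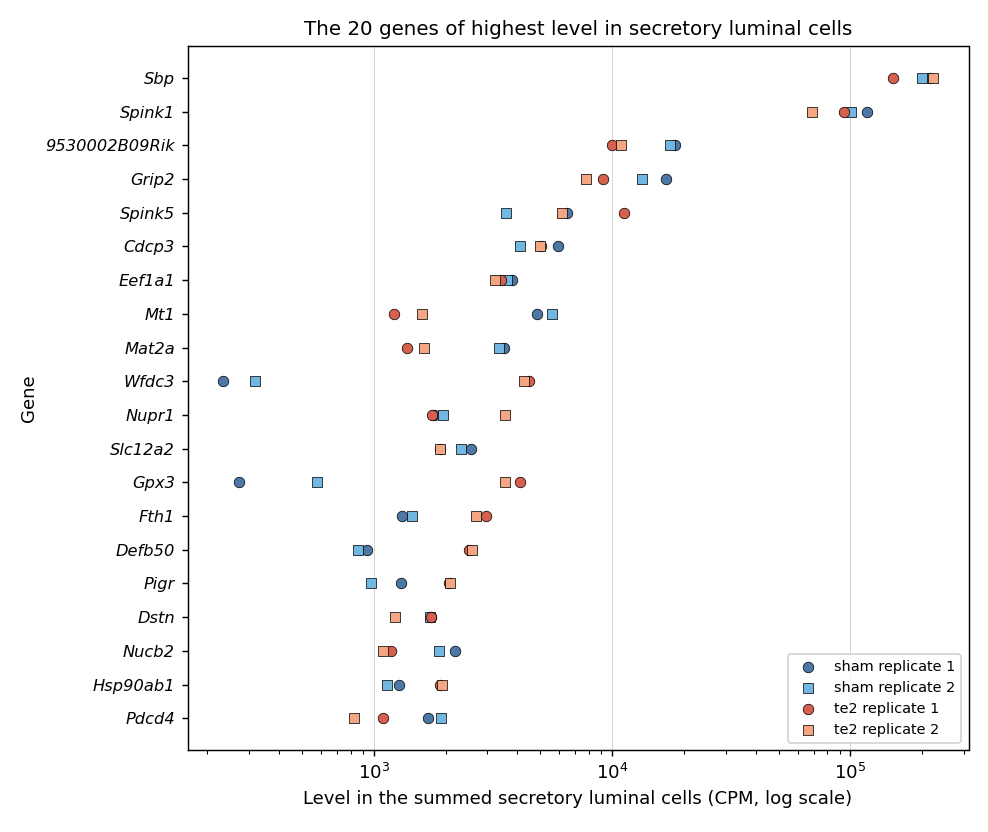
Level of the 20 genes of highest mean level (ribosomal protein and mt- genes left out) in the summed secretory luminal cells of each library, in CPM on a log axis; each point is 1 library. Wfdc3 and Gpx3 lie far apart between the groups, from 233 to 578 CPM in sham and from 3562 to 4467 CPM in te2, and Mt1 lies apart in the other direction.

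The main comparison asked how the same kind of cell differed between te2 and sham animals. Counts were summed over the members of each library and tested with edgeR's quasi-likelihood test, with Benjamini-Hochberg adjustment over all genes at a false discovery rate of 0.05. Of 10883 genes tested, 3429 passed (31.5%), 1933 higher in te2 (17.8%) and 1496 lower (13.7%). The CPM of the groups did not overlap for 7300 genes (67.1%). The median log2 change over all genes was -0.00, so changes are relative to that. Counts below are read against these shares. In cells thinned to 1000 UMIs 599 genes were higher and 475 lower, and with DESeq2 1057 and 558. List counts given for those settings are read against these lower totals. Thinning also left fewer members of many lists to test. With 2 animals a group, the smallest p of an exact permutation test is 0.33, and the small p-values of edgeR rest on a spread pooled over genes.

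Among the secreted products, 7 of the 14 tested members were higher and 4 lower in te2, and the median log2 change was 0.49. The list has 28 names, and the rest were chosen by the rule, absent from the tables or too low to test. Wfdc3, which encodes a protein with the whey acidic protein domain of protease inhibitors, stood at 233 and 319 CPM in sham and at 4467 and 4270 CPM in te2. It went from a minor message to the most abundant te2 message of this list after Sbp, Spink1, Spink5 and 9530002B09Rik, with a log2 change of 3.98 ± 0.18 (SE; adjusted p = 7.25e-09). Gpx3, which encodes the secreted glutathione peroxidase, stood at 273 and 578 CPM in sham and at 4104 and 3562 CPM in te2. Its log2 change was 3.17 ± 0.26 (adjusted p = 2.03e-06), and the groups were far apart. Defb50, a beta-defensin gene, stood at 936 and 859 CPM in sham and at 2507 and 2572 CPM in te2, a log2 change of 1.50 ± 0.14. Pigr, the receptor that carries IgA across epithelia, rose by 0.87 ± 0.15, from 1300 and 977 CPM to 2075 and 2087 CPM.

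Spink5, another Kazal-type inhibitor gene, varied between animals of a group. It stood at 6452 and 3604 CPM in sham and at 11250 and 6155 CPM in te2, and the groups overlapped. Its log2 change of 0.79 ± 0.28 passed narrowly (adjusted p = 0.0446 by edgeR's test). Without sham replicate 2 it was 0.43 and without te2 replicate 1 it was 0.31, neither past the threshold, and without sham replicate 1 it was 1.28. The other products that rose, Wfdc2 and Mmp7, were minor messages of at most 63.7 CPM.

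The products that fell included the most abundant one open to the test. 9530002B09Rik, a gene known here by its clone name, stood at 18387 and 17545 CPM in sham and at 10007 and 10882 CPM in te2. Its log2 change was -0.78 ± 0.18 (adjusted p = 0.00416), with no overlap. Azgp1 fell by 0.92 ± 0.14 on the log2 scale, from 1181 and 1067 CPM to 640 and 547 CPM. The chymotrypsin gene Ctrc changed by -2.23 ± 0.17 and the secretoglobin gene Scgb2b7 by -2.14 ± 0.37, the latter not past the threshold of DESeq2. The median of the list was 0.19 with sham replicate 2 left out, 0.31 with te2 replicate 1 and 0.16 with te2 replicate 2. Over the 20 members tested when rare genes were kept, the median turned to -0.27 without the filter on low counts and to -0.23 with DESeq2.

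Of the 298 most abundant genes outside the selection rule, 129 were higher and 45 lower in te2, and such genes are tested on more counts than most. The scaffold gene Grip2 stood at 16770 and 13297 CPM in sham and at 9156 and 7743 CPM in te2, a log2 change of -0.83 ± 0.19. Clu, which encodes the extracellular chaperone clusterin, rose by 3.33 ± 0.20, from 110 and 69.9 CPM to 775 and 1011 CPM. The annexin gene Anxa1 rose by 2.45 ± 0.17 and the lysosomal fucosidase gene Fuca1 by 2.15 ± 0.14. These genes serve extracellular protein binding, membrane contact and glycan breakdown.

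Fth1, the heavy chain of the iron store ferritin, rose by 1.03 ± 0.14, and Hsp90ab1, a cytosolic chaperone, by 0.66 ± 0.14. Papss2, which makes the sulfate donor of the cell, fell by 1.87 ± 0.17, and Fam25c by 1.82 ± 0.15. Nucb2, a calcium-binding protein of the secretory pathway, fell by 0.84 ± 0.14, from 2192 and 1884 CPM to 1183 and 1097 CPM. Pdcd4, an inhibitor of translation, fell by 0.91 ± 0.16. Slc12a2, the sodium, potassium and chloride cotransporter, had a log2 change of -0.37 ± 0.14 and did not pass (adjusted p = 0.0588 by edgeR's test). Nupr1, a stress-induced nuclear protein, did not pass either, and te2 replicate 2 stood at 3558 CPM while the other libraries lay between 1751 and 1956 CPM.

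Of 26 transcription factors and hormone receptors tested, 4 were higher and 5 lower, beside 17.8% and 13.7% of all genes. The median log2 change was -0.18. Bhlha15, the basic helix-loop-helix factor of exocrine secretory cells, stood at 415 and 406 CPM in sham and at 70.6 and 89.6 CPM in te2. Its log2 change was -2.35 ± 0.14 (adjusted p = 8.68e-08). Creb5, a leucine zipper factor, changed by -3.13 ± 0.27, from 412 and 506 CPM to 29.0 and 73.5 CPM. In both genes every te2 library lay far below every sham library.

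Hoxb13 stood at 635 and 683 CPM in sham and at 965 and 993 CPM in te2, a log2 change of 0.57 ± 0.13 (adjusted p = 0.00359). Ehf, an ETS factor of epithelia, rose by 0.90 ± 0.14 and Tfcp2l1, a grainyhead-like factor, by 0.91 ± 0.15. Klf5 was the other member that rose, and Tbx3 and Nfia also fell, Nfia no longer past the threshold without sham replicate 1. Foxa1, a pioneer factor, had a log2 change of -0.27 ± 0.12 and did not pass. Krt18 rose by 0.86 ± 0.13, and Krt8, its partner in luminal filaments, fell by 0.47 ± 0.13. Krt8 no longer passed without sham replicate 2 (-0.34) or without te2 replicate 2 (-0.43).

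The estrogen receptor genes were rare, with 5.86 to 10.9 CPM of Esr1 and 2.99 to 7.55 CPM of Esr2 over the 4 libraries. Prlr, the prolactin receptor gene, stood between 246 and 314 CPM in all libraries, with the te2 values inside the sham range. Esr1, Esr2, Prlr and the secretory factor genes Creb3l4 and Spdef did not pass the test.

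Of 22 genes known to respond to androgen in prostate cells, 9 were higher and 4 lower, beside 17.8% and 13.7% of all genes. Its median log2 change was 0.27, and it was -0.10 when every cell was thinned to 1000 UMIs. Mboat2, a lysophospholipid acyltransferase gene, rose by 3.43 ± 0.26, from 3.10 and 5.03 CPM to 50.8 and 40.8 CPM. Dbi, which encodes the acyl-CoA binding protein, rose by 1.83 ± 0.16. Bmpr1b, a bone morphogenetic protein receptor gene, fell by 1.55 ± 0.13, and Odc1 fell with it, as described with the polyamines below.

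Genes of the machinery that moves proteins into the ER were split in direction. Of 29 genes of translocation and signal cleavage, 9 were higher and 5 lower, with a median log2 change of 0.06. The oligosaccharyltransferase genes Stt3b and Dad1 rose by 1.04 ± 0.13 and 0.89 ± 0.14, while the signal recognition particle genes Srp68 and Srp54a fell by 0.85 ± 0.13 and 0.99 ± 0.16. The median was -0.09 without sham replicate 2 and -0.07 without te2 replicate 2, and in thinned cells 5 genes were higher and 4 lower.

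ER folding and unfolded protein response genes were likewise split, with 7 of 26 higher, 8 lower and a median of 0.06. Their summed level was 0.646% and 0.503% of UMIs in sham and 0.747% and 0.766% in te2. Ero1a, an oxidase that drives disulfide formation, stood at 13.2 and 5.31 CPM in sham and at 69.7 and 70.4 CPM in te2, a log2 change of 3.00 ± 0.25. Pdia3, a disulfide isomerase gene for glycoproteins, rose by 1.10 ± 0.16, and Dnajb11, a cochaperone gene, by 1.05 ± 0.14. Syvn1, the ubiquitin ligase of ER-associated degradation, fell by 1.31 ± 0.14. Dnajc10, an ER disulfide reductase gene, fell by 1.66 ± 0.13, from 890 and 850 CPM to 269 and 280 CPM. Without sham replicate 2 the list had 5 higher and 10 lower members and a median of -0.14, and without te2 replicate 2 it had 6, 10 and -0.05, while without sham replicate 1 it had 11 and 7. With DESeq2 it had 8 higher and 4 lower, and in thinned cells 6 and 4.

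Of 28 vesicle traffic and exocytosis genes, 8 were lower and 3 higher, beside 13.7% and 17.8% of all genes, and the median log2 change was -0.17. With DESeq2 the counts were 3 lower and 2 higher, and in thinned cells 2 lower and 0 higher. Rab3d, the small GTPase of mature secretory granules, stood at 218 and 222 CPM in sham and at 101 and 103 CPM in te2. Its log2 change was -1.11 ± 0.12 (adjusted p = 2.02e-05). Mcfd2, a partner of the cargo receptor of the early pathway, fell by 0.99 ± 0.16, and the granule genes Sytl4 and Rab26, both under 16 CPM, changed by -1.46 ± 0.35 and -1.47 ± 0.36. Rab26 was lost without sham replicate 2 (-0.92). The 3 higher members were past the threshold neither without sham replicate 2 nor without te2 replicate 2, and 4 members were lower without te2 replicate 1.

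Of 21 glycosylation genes, 10 were higher and 2 lower, and the median log2 change was 0.27. With DESeq2 the counts were 4 and 0, and in thinned cells 3 and 1. Cmas, which activates sialic acid, stood at 112 and 134 CPM in sham and at 377 and 337 CPM in te2, a log2 change of 1.53 ± 0.14. Nans, the sialic acid synthase, rose by 1.05 ± 0.13, and the mannosidase gene Man1a by 0.86 ± 0.18. The sialyltransferase gene St3gal4 had 3 and 3 counts in sham and 38 and 45 in te2, and so entered the test through its te2 counts. Without te2 replicate 2 the counts were 6 and 1.

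**Figure D2:**
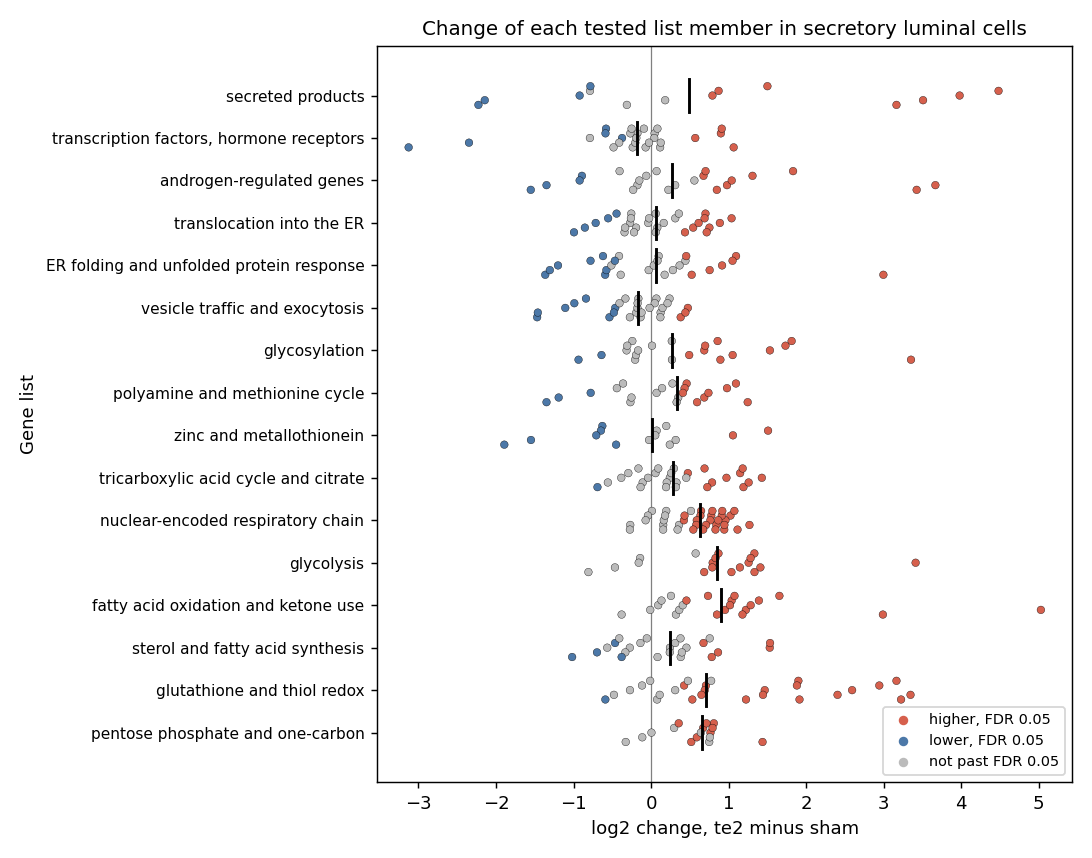
Log2 change (te2 minus sham) of each tested member of 16 gene lists in secretory luminal cells; each point is 1 gene, red and blue points passed the false discovery rate of 0.05 and the bar marks the list's median. The medians run from -0.18 for transcription factors and hormone receptors to 0.90 for fatty acid oxidation and ketone use.

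Of the 21 genes of the polyamine and methionine list tested, 9 were higher in te2 and 3 lower, beside 17.8% and 13.7% of all genes. The 3 that fell make polyamines or their precursors. Odc1, the first and rate-limiting enzyme of polyamine synthesis, stood at 542 and 447 CPM in sham and at 208 and 180 CPM in te2, a log2 change of -1.35 ± 0.14 (adjusted p = 1.06e-05). Mat2a, which makes S-adenosylmethionine, stood at 3535 and 3341 CPM in sham and at 1385 and 1625 CPM in te2, a change of -1.19 ± 0.15. Amd1, which decarboxylates S-adenosylmethionine for this route, also fell. The groups did not overlap for any of the 3, as for 67.1% of all genes tested. Oaz1, which encodes the antizyme that inhibits Odc1, rose by 1.10 ± 0.13, and Sat1, which acetylates polyamines for export, by 0.98 ± 0.13.

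The median log2 change of the polyamine and methionine list was 0.33. The summed level of the list was 0.529% and 0.512% of UMIs in sham and 0.370% and 0.385% in te2, since Mat2a and Odc1 carry much of it. The median of the single genes and the summed level thus differ in direction. Without te2 replicate 2 the counts were 5 higher and 4 lower, and both with DESeq2 and in thinned cells they were 3 higher and 3 lower.

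The metallothioneins, which bind zinc and other metals, fell together. Mt1 stood at 4828 and 5621 CPM in sham and at 1219 and 1594 CPM in te2, with a log2 change of -1.89 ± 0.17 (adjusted p = 3.82e-06). Mt2 stood at 1432 and 1721 CPM in sham and at 512 and 565 CPM in te2, a change of -1.55 ± 0.14. Of the 14 zinc genes tested, 6 were lower and 2 higher, with a median of 0.01. The importer gene Slc39a1 fell by 0.63 ± 0.13, and another, Slc39a8, rose by 1.51 ± 0.21, from 22.9 and 31.6 CPM to 61.6 and 94.4 CPM. The lower count was 3 without te2 replicate 1, without te2 replicate 2, with DESeq2 and in thinned cells, while Mt1 and Mt2 passed in every alternative that was run.

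Genes of energy metabolism were one-sided. Of 37 nuclear genes of the respiratory chain tested, 24 were higher in te2 and 0 lower, with a median log2 change of 0.64, against 17.8% and 13.7% of all genes. Leaving out each library in turn gave 22 to 25 higher and 0 lower. Ndufa4 stood at 394 and 430 CPM in sham and at 887 and 1099 CPM in te2, a log2 change of 1.27 ± 0.14. The electron carrier gene Cycs rose by 1.12 ± 0.13, the complex I gene Ndufa13 by 1.02 ± 0.12 and the cytochrome oxidase gene Cox5b by 0.95 ± 0.12. The 13 mitochondrially encoded genes, part of the selection rule, took 4.02% and 5.03% of UMIs in sham and 4.16% and 4.28% in te2, with overlap.

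Glycolysis moved the same way, with 13 of 18 genes higher, 0 lower and a median of 0.85. Pgk1 stood at 76.4 and 89.2 CPM in sham and at 241 and 202 CPM in te2, a log2 change of 1.41 ± 0.14. The lactate dehydrogenase gene Ldha rose by 1.28 ± 0.13, the pyruvate kinase gene Pkm by 1.26 ± 0.14 and Gapdh by 1.15 ± 0.14. The higher count was 12 or 13 without any one library and 8 in thinned cells, and 1 gene was lower without sham replicate 1 and without te2 replicate 1.

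Among genes of the tricarboxylic acid cycle and citrate, 10 of 28 were higher and 1 lower, with a median log2 change of 0.28. Mdh1, the cytosolic malate dehydrogenase, stood at 154 and 123 CPM in sham and at 354 and 390 CPM in te2, a log2 change of 1.43 ± 0.14. Fh1, the fumarase gene, rose by 1.26 ± 0.21, the succinyl-CoA ligase gene Sucla2 by 1.18 ± 0.14 and the succinate dehydrogenase gene Sdhb by 0.79 ± 0.13. Sdhb was 0.38 and did not pass when cells were thinned to 1000 UMIs. The member that fell was Acly, which splits citrate in the cytosol, and the citrate synthase gene Cs did not pass, at 36.8 and 35.8 CPM in sham and 32.3 and 42.5 CPM in te2. In thinned cells 5 genes of the list were higher and 3 lower.

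Of 22 genes of fatty acid oxidation and ketone use, 14 were higher and 0 lower, with a median log2 change of 0.90. Oxct1, the enzyme that lets a cell burn ketone bodies, stood at 100 and 110 CPM in sham and at 834 and 842 CPM in te2. Its log2 change was 2.99 ± 0.13 (adjusted p = 6.63e-09), and it joined the abundant messages of te2 cells. The electron transfer flavoprotein gene Etfb rose by 1.66 ± 0.14, the dehydrogenase gene Acadm by 1.39 ± 0.17 and the thiolase gene Acaa2 by 1.18 ± 0.12. Without te2 replicate 2 the median was 0.73. In thinned cells 5 of the 15 genes tested were higher, with a median of 0.74.

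Sterol and fatty acid synthesis moved less, with 5 of 24 genes higher, 4 lower and a median of 0.24, beside 17.8% and 13.7% of all genes. Fdps, the farnesyl diphosphate synthase gene, rose by 1.54 ± 0.17, Pmvk, a mevalonate pathway kinase gene, by 1.53 ± 0.18 and Cyp51, a sterol demethylase gene, by 0.86 ± 0.16. Insig1, which holds the sterol sensor in the ER, fell by 1.02 ± 0.16. Fdps was 0.76 in thinned cells and Cyp51 0.59, and neither passed there, where 1 gene of the list was higher and 1 lower.

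**Figure D3:**
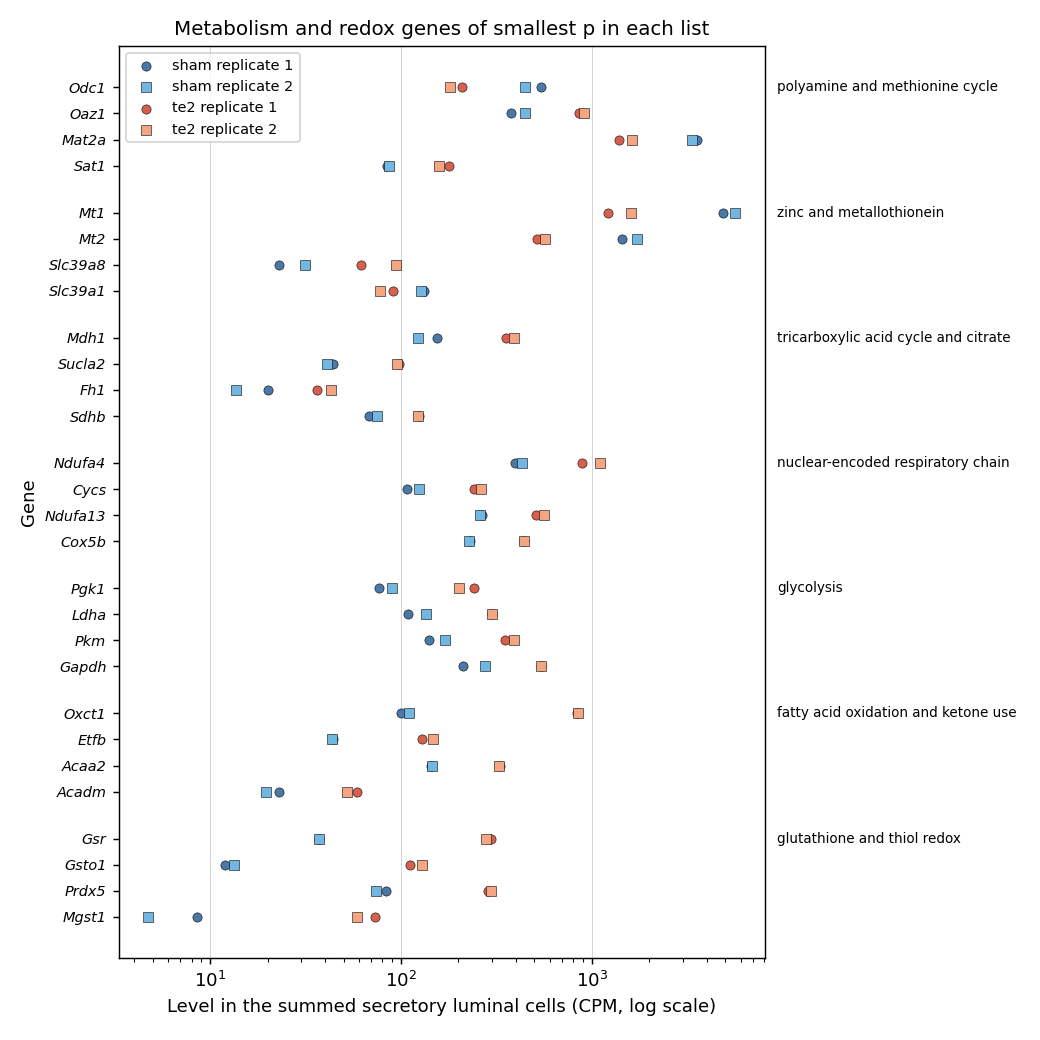
Level of the 4 genes of smallest p in each of 7 metabolism lists, in CPM on a log axis, in the summed secretory luminal cells; each point is 1 library and overlapping points hide each other. In every gene drawn the 2 te2 libraries lie on the same side of both sham libraries, below for Odc1, Mat2a, Mt1, Mt2 and Slc39a1 and above for the others. The choice by p favours this, and the groups did not overlap for 67.1% of all genes tested.

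Genes of glutathione and thiol chemistry were 17 of 27 higher and 1 lower, with a median log2 change of 0.71. Gsr, which regenerates glutathione, stood at 37.2 and 37.2 CPM in sham and at 295 and 278 CPM in te2, a log2 change of 2.94 ± 0.14 (adjusted p = 7.75e-09). Gsto1, a glutathione transferase gene, rose by 3.23 ± 0.17 from 12.0 and 13.4 CPM to 111 and 129 CPM. The microsomal transferase gene Mgst1 rose by 3.35 ± 0.24 and the peroxiredoxin gene Prdx5 by 1.88 ± 0.13. The member that fell was Gpx1, the cytosolic peroxidase, at 298 and 337 CPM in sham and 214 and 208 CPM in te2. Without te2 replicate 2, 13 genes were higher.

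The same lists were then measured in single cells. Each cell was thinned to 1000 UMIs, and shares were taken of the UMIs that were not Sbp or Spink1. The redox list took a median of 0.414% and 0.450% in sham cells and 1.10% and 1.07% in te2 cells. The respiratory chain took 1.51% and 1.66% in sham and 2.38% and 2.34% in te2, and the metallothionein and zinc list took 0.678% and 0.803% in sham and 0.226% and 0.275% in te2. The tenth percentile of the te2 cells in the redox list, 0.473% and 0.452%, lay above both sham medians. Gpx3, also counted with the secreted products, made up much of this. Without it, a choice made after the values were seen, the redox medians were 0.372% and 0.379% in sham and 0.595% and 0.650% in te2, and the tenth percentile of the te2 cells, 0.236% and 0.237%, lay below both sham medians.

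Pentose phosphate and one-carbon genes had 9 of 16 members higher and 0 lower, with a median of 0.66. Tyms, which makes thymidylate, rose by 1.44 ± 0.24, the serine synthesis gene Phgdh by 0.81 ± 0.13, the mitochondrial folate gene Mthfd2 by 0.79 ± 0.18 and the lactonase gene Pgls by 0.67 ± 0.13. Of these 4, Tyms alone passed in thinned cells. The higher count was 5 without te2 replicate 2, 4 with DESeq2 and 2 in thinned cells. Ribosomal protein genes, a group chosen after their values were seen, went against the energy lists. They took 13.4% and 14.2% of UMIs in sham and 11.4% and 9.67% in te2, with 48 of 77 lower and 2 higher.

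Messages of other cell types were sought in the members. All 7 markers of proximal luminal cells, the epithelium near the urethra, were higher in te2 members, and their summed level was 154 and 141 CPM in sham and 1552 and 1394 CPM in te2. Psca, a surface antigen gene, had no count in the sham members and stood at 770 and 644 CPM in te2. Krt7 stood at 5.82 and 3.08 CPM in sham and at 161 and 162 CPM in te2. The cells outside the rule held 1004 and 1672 CPM of these markers in sham and 3181 and 2732 CPM in te2. The part of RNA from those cells in the rise was not tested.

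In sums by plain library totals, markers of the remaining cell types were low. Basal markers summed to 7.81 and 17.1 CPM in sham and 56.8 and 71.3 CPM in te2, with Dsc3 at 0. Fibroblast markers summed to 101, 73.5, 173 and 66.1 CPM in the order of the libraries and macrophage markers to 111, 37.4, 74.8 and 18.5 CPM. Endothelial markers lay between 23.3 and 34.7 CPM with Cdh5 at 0, lymphocyte markers between 1.47 and 6.05 CPM with Trac and Cd79a at 0, and no seminal vesicle marker was counted. Cells with at least 0.5% of UMIs from these lists and the proximal one numbered 10, 6, 25 and 26, and without them 3462 genes passed. Markers of other prostate lobes (Tgm4, Pigr and Crabp1), not part of that limit, were not low. They summed to 1510 and 1385 CPM in sham members and to 2633 and 2622 CPM in te2 members. The cells outside the rule held 844 and 1161 CPM in sham and 2347 and 3227 CPM in te2. Pigr and Crabp1 were higher in te2 members, and Tgm4 was too low to test. With DESeq2 1 member was higher.

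Spread between cells was measured at equal depth, as the variance over the mean of each gene's thinned counts, a ratio of 1 being pure counting noise. Over 746 genes with a mean of at least 0.1 UMI per thinned cell, Sbp and Spink1 left out and mt- genes kept, the median was 1.09 and 1.07 in sham and 1.07 and 1.07 in te2. The groups differed by -0.0121 in the mean of these medians, and an exact permutation test gave p = 0.33, the smallest p this design allows. By this ratio most genes lay close to counting noise in all libraries. For a gene of low mean the ratio stays near 1 even where cells differ, so it does not show that most genes hardly vary. Calr had ratios of 1.45 and 1.26 in sham and 1.29 and 1.44 in te2. Its spread beyond counting noise, relative to its mean, was 0.966 and 0.833 in sham and 0.652 and 0.820 in te2. Of 748 genes, Sbp and Spink1 now included, a ratio above 2 was found for 28, 22, 19 and 20 in the order of the libraries.

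Genes of high ratio included secreted products, mt- genes such as mt-Cytb and ribosomal protein genes such as Rpl41. Spink5 reached ratios of 15.1 and 12.8 in sham and 17.7 and 11.8 in te2. Its median was 2 and 1 UMIs per 1000 in sham and 8 and 3 in te2, and its ninetieth percentile 20, 12, 31 and 19, while 35.5%, 47.7%, 26.3% and 38.5% of cells had none. Defb50 reached 4.10 and 6.87 in sham and 7.47 and 10.5 in te2, with single cells at up to 47 UMIs per 1000. Pigr had ratios of 2.29 and 1.51 in sham and 3.97 and 5.18 in te2, and Gpx3 1.56 and 2.53 in sham and 4.25 and 3.81 in te2, both with a higher mean in te2. Mt1 had 4.62 and 4.73 in sham and 3.13 and 3.21 in te2, with a lower mean there.

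Wfdc3 behaved otherwise. Its ratio was 2.71 and 2.86 in sham and 1.90 and 2.17 in te2 although its mean there was far higher. Beyond counting noise, its spread relative to the mean (a coefficient of variation) was 2.62 and 2.29 in sham and 0.434 and 0.516 in te2. Cells of te2 thus carried Wfdc3 more evenly. By this measure Gpx3 was also more even in te2, at 1.43 and 1.65 in sham and 0.890 and 0.919 in te2. Mt1 was less even there, at 0.918 and 0.869 in sham and 1.32 and 1.19 in te2. So was Pigr, at 0.943 and 0.713 in sham and 1.13 and 1.30 in te2. Grip2 and Lars2 owed a high ratio to single cells. A cell of te2 replicate 1 held 137 Grip2 UMIs of 1000, and that library's ratio was 7.78 against 2.22 to 2.61 in the others. In te2 replicate 2 the top 1% of cells held 40.0% of the Lars2 counts, and its ratio was 13.3 against 1.29 to 1.96.

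**Figure D4:**
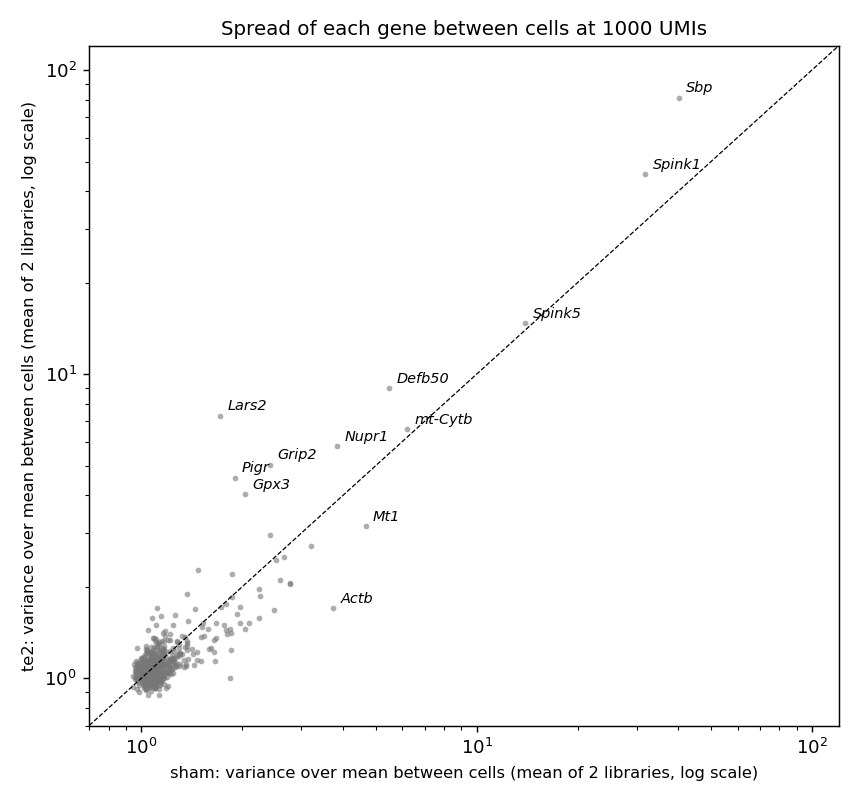
Variance over mean of each gene's thinned counts between secretory luminal cells, te2 against sham, each the mean of 2 libraries on log axes; each point is 1 gene and the dashed line marks equal spread. Most genes crowd near 1, and Sbp, Spink1 and Spink5 lie at the far end.

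Sbp and Spink1 spread further in te2 than in sham, as a description of the cells that the rule let in. The ratio for Sbp was 39.6 and 40.4 in sham and 91.6 and 70.4 in te2, and that for Spink1 29.3 and 34.5 in sham and 38.9 and 51.9 in te2. In sham, 98.8% and 98.0% of members held at least 2% of each message, and in te2 77.6% and 70.3%. Members with less than 2% Spink1 numbered 5 and 16 in sham (0.768% and 1.58%) and 39 and 123 in te2 (10.8% and 27.7%). Members with less than 2% Sbp numbered 3 and 4 in sham (0.461% and 0.396%) and 42 and 9 in te2 (11.6% and 2.03%).

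The te2 animals differed in which message was low, Sbp as often as Spink1 in replicate 1 and mostly Spink1 in replicate 2. Since the rule sets a floor on the sum, a member low in one had to hold the other. Across members the rank correlation of Sbp with Spink1 was 0.19 and 0.40 in sham and -0.08 and 0.04 in te2, over 651, 1011, 361 and 444 cells that share a library and a fixed total. By plain library totals, the cells outside the rule held Spink1 at 14258 and 12081 CPM in sham and at 5709 and 4428 CPM in te2. Their low level follows from the rule's limit on the sum. Barcodes under 1000 UMIs held 80684 and 76497 CPM of Spink1 in sham and 13862 and 12465 CPM in te2. The part of free RNA in these levels was not tested. With only the members that held at least 2% of each message, a choice made after the values were seen, 3001 genes passed the test.

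**Figure D5:**
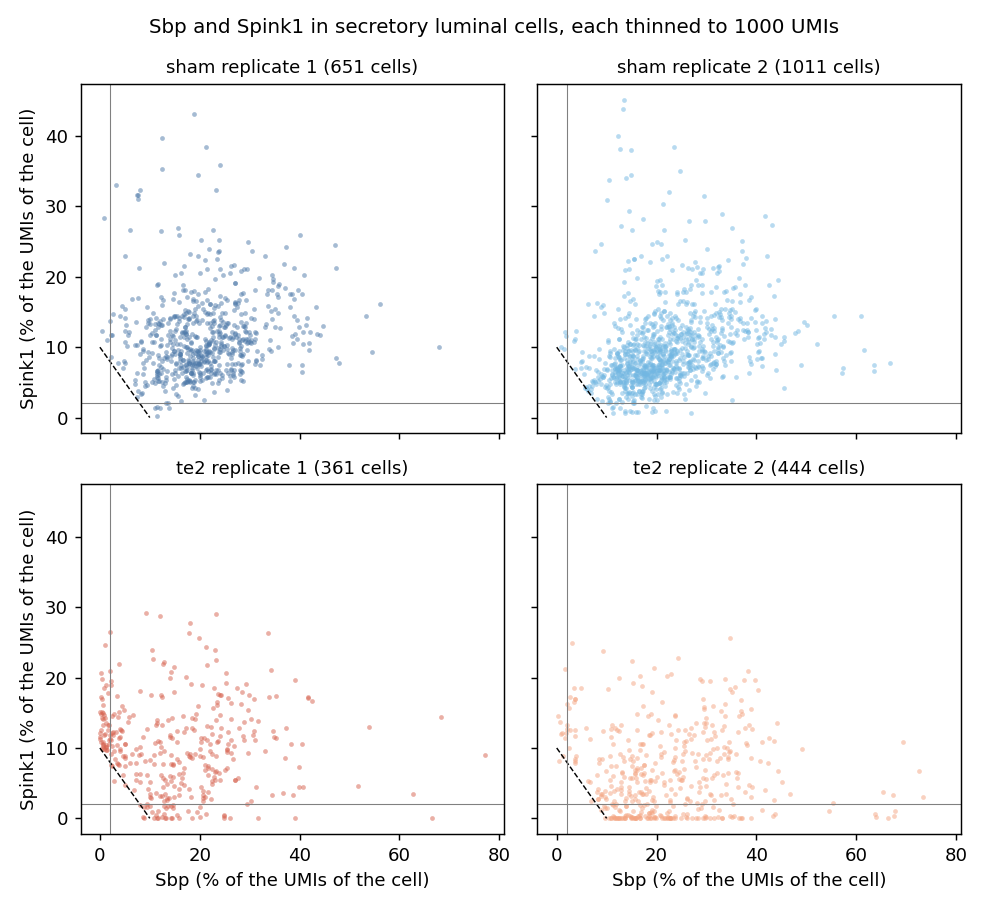
Share of Sbp and of Spink1 in each secretory luminal cell, thinned to 1000 UMIs, 1 panel per library; grey lines mark 2% and the dashed line a sum of 10%, the limit of the rule before thinning. The te2 panels hold cells along both axes, 39 and 123 below 2% Spink1 and 42 and 9 below 2% Sbp, while the sham panels hold few.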

How the data were processed

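The values are whole UMI counts, one deposited table for each library with genes in rows and cells in columns. The submitters' processing notes name build GRCm39 and the tools Seurat 5.0.1, kallisto 0.46.1, R 4.3.2 and bustools 0.39.4, with no role for any. No gene is listed with fewer than 3 cells of its library, and the cell with fewest genes has 196 to 199. Genes that a table lacks were taken as 0 there. Genes with near-identical copies, such as Sbp and Sbpl or Smr2 and Smr2l, are uncertain, as the counting of shared reads is not described. Whether an antisense or overlapping gene shares reads is likewise not given.

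The cells were chosen by the rule given in the report. The rule, the gene lists and the tests were chosen with earlier results of these data known. Each library is 1 animal, so counts were summed over the members of each library and tested with edgeR 4.0.16 (quasi-likelihood test, two-sided, with TMM factors, filterByExpr and a false discovery rate of 0.05 after Benjamini-Hochberg adjustment, in R 4.3.3). CPM is the count scaled by the filtered library total times its TMM factor. SE is derived from the test's F statistic. The fit was tested on simulated data with known changes.

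Named genes are the 20 of highest level, the 8 most raised and 8 most lowered past the threshold among the 300 of highest level, the 4 of smallest p in each list, the cell type markers, the 8 of highest spread in each group, and 10 fixed transcription factors and receptors. Some genes that the rule names are not reported here. Other members are named to complete a count, and Cs was chosen after its values were seen. For the spread, each cell was thinned once to 1000 UMIs. Doublets were called with scrublet as run by scanpy 1.11.5 (Python 3.11.15) and kept, with their removal as an alternative. Other alternatives were DESeq2 1.42.0, no TMM factors, no filter on low counts, other limits of the rule, thinned cells, a replicate block and each library left out. Same-numbered libraries did not deviate together (correlation 0.00205 over 10883 genes), so the numbers were not taken as pairs. The planned test against luminal cells high in Msmb was not run, because a library needed 20 such cells. Promoters are from RefSeq and matched by symbol.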

Additional observations from a re-analysis of the deposited data

How the results depend on the processing

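For te2 against sham in secretory luminal cells, 3429 genes passed. The count was 1615 with DESeq2 and 1074 when each cell was thinned to 1000 UMIs, which leaves fewer counts and 5765 genes to test. Of these, 1608 and 1032 were among the 3429. Leaving out 1 library gave 2352 to 3295, fewest without te2 replicate 2. The other settings gave 3001 to 3813. With the replicate block 3327 genes passed, 3273 of them among the 3429, and no call printed in the report was lost, though the numbers do not pair the animals. Of 91 genes past the threshold whose changes the report gives or names and that were checked, 77 passed under every alternative of 16 that gave a value. In thinned cells Srp54a, Mcfd2, Sdhb, Fdps, Cyp51, Phgdh, Pgls and Mthfd2 did not pass, and with DESeq2 Spink5, Rab26, Sytl4 and Scgb2b7 did not. Nor did Spink5 in cells with at least 2% of each message. The cause was not tested. The sign turned for 5 genes that did not pass. These were Creb3l4 (-0.33 in thinned cells, -0.30 to 0.55 without single libraries), Esr1 (-0.63 to 0.21 without single libraries), Nupr1 (-0.11 to 0.95 likewise), Prlr (0.078 in thinned cells, 0.046 without TMM factors, 0.017 without the filter on low counts, -0.19 to 0.17 without single libraries) and Spdef (-0.0053 with at least 2000 UMIs per cell, -0.24 in thinned cells, -0.18 to 0.37 without single libraries). The difference in median spread lay between -0.0204 and -0.00460 over all alternatives. Depth limits rare genes, and 2 animals a group limit every comparison.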

Other observations

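The te2 members low in Sbp or in Spink1 were not alike in their other messages. The following values are a description of cells split after their values were seen, with no test, in CPM of the UMIs that are not Sbp or Spink1. Members low in Sbp (42 and 9 cells) held Lrg1, a secreted leucine-rich glycoprotein gene, at 494 and 1512 CPM, where members with at least 2% of each message held 84.8 and 261 CPM. Saa1, the serum amyloid A gene, stood at 479 and 1247 CPM against 114 and 220 CPM, the lipocalin gene Lcn2 at 142 and 454 CPM against 24.8 and 79.7 CPM, and the chemokine gene Cxcl17 at 538 and 1247 CPM against 146 and 156 CPM. In both animals these messages were higher in the Sbp-low cells. The same cells held less Gpx3 (1204 and 1487 CPM against 6668 and 5725 CPM), less of the cyclin gene Ccnd2 (112 and 50.4 CPM against 633 and 531 CPM) and less Oxct1 (366 and 542 CPM against 1267 and 1282 CPM).

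In te2, members low in Spink1 (39 and 123 cells) held more metallothionein, with Mt2 at 1459 and 1094 CPM against 636 and 686 CPM and Mt1 at 3350 and 2782 CPM against 1540 and 2066 CPM. They held less Pigr (1609 and 1995 CPM against 2956 and 3246 CPM) and less of the growth factor gene Egf (194 and 210 CPM against 358 and 339 CPM). In Sbp-low te2 cells Mt1 stood at 785 and 1146 CPM. In sham the few Spink1-low cells (5 and 16) went the other way, with Mt1 at 3583 and 4401 CPM against 6813 and 7927 CPM. Median depth was 8957 and 10231 UMIs in Spink1-low cells, 7188 and 9265 in Sbp-low cells and 9000 and 10909.5 in the others. The 9 Sbp-low cells of te2 replicate 2 are few, and their summed total was 92502 UMIs.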
